A study of Mus musculus with 4 samples.

Results

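The genes described here are p53 and 9 genes that p53 is known to switch on, 10 of the 55812 features in a table of RNA-sequencing read counts from primary mouse Leydig cells, the testosterone-producing cells between the seminiferous tubules of the testis. They were chosen by name (Trp53, Mdm2, Cdkn1a, Ccng1, Eda2r, Phlda3, Zmat3, Gdf15, Sesn1 and Trp53inp1) and found through their Ensembl identifiers in the GENCODE M21 annotation of GRCm38. All 10 were in the table and all 10 passed the filter on low counts. The cells, labelled as coming from a 6-month-old mouse, received a small interfering RNA against Trps1 (Trps1 siRNA, 2 samples) or a control one (Negative siRNA, 2 samples). Trps1 encodes a GATA-type zinc finger repressor of transcription. The labels give no strain. Nothing in them tells whether a group's samples were independent cultures or mice, and the p-values below therefore reflect a spread that could be technical.

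p53, encoded by Trp53 in the mouse, is a transcription factor that cells keep scarce by having the ubiquitin ligase Mdm2 mark it for destruction. DNA damage and other stresses release it from Mdm2, and it then binds paired decamer sites in DNA and raises the transcription of genes that halt the cell cycle, repair DNA, alter metabolism or start apoptosis. Mdm2 is itself one of these genes, which closes a negative feedback loop. Because p53 is controlled mainly through the stability and modification of the protein, the mRNA of Trp53 need not move with p53 activity, and the mRNA levels of its targets are the usual transcript readout. No protein was measured here.

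Promoter sequences show how closely each gene's start region resembles the DNA that p53 binds. RefSeq promoter windows (GRCm38.p6, 250 bases before to 50 after an annotated start) were held for 8 of the genes, and each was searched for its best match to the consensus p53 response element, a pair of abutting decamers of 20 positions in all. The consensus reads the same on both strands, so that 1 search covers both. The sequences below, given 5′ to 3′ on the strand of the gene, are the closest matches among these genes and those of the 2 genes whose expression rose. Capitals mark bases that match the consensus and lower case marks bases that do not.
Cdkn1a: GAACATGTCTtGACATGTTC
Ccng1: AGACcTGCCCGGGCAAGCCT
Trp53: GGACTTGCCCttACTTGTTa
Sesn1: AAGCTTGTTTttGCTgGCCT
Phlda3: GGcCcTGTCCGGGCggGTgC
Eda2r: AGAtTAGgCTAGAtcTaaCT
The Cdkn1a match (chr17:29090928-29090947, plus strand, 51 bases before the upstream of 2 annotated starts) and the Ccng1 match (chr11:40755462-40755481, minus strand, 195 bases before the start) held 19 of 20 positions. At least 19 positions were matched in 29 of 32851 promoter windows, or 0.0883%. Trp53 (chr11:69580284-69580303, plus strand) and Sesn1 (chr10:41887266-41887285, plus strand, at the second of 2 starts) matched at 17 positions, and 6.29% of windows matched at 17 or more. The best windows of Phlda3 (chr1:135766042-135766061, plus strand) and Eda2r (chrX:97377412-97377431, minus strand) matched at 15 and 14 positions, which 76.6% and 98.5% of all windows reached. Mdm2 and Gdf15 also reached 15. The sites through which p53 is known to act on Mdm2 lie in an intron, outside the window. Sites outside the window, or with a spacer between the decamers, would be missed for every gene, Phlda3 and Eda2r included. A match describes letters, not binding.

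**Figure D1:**
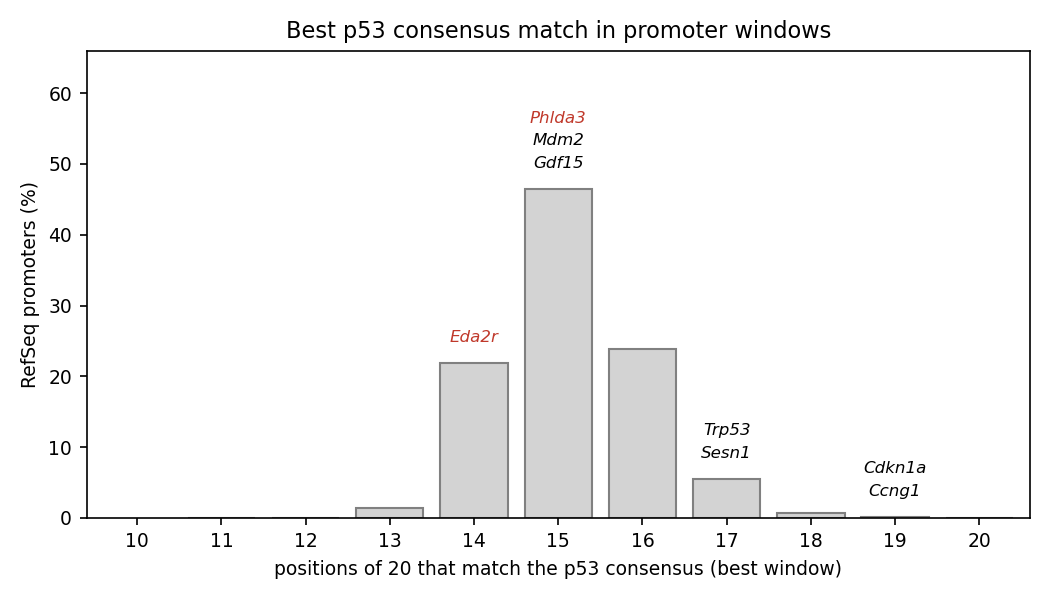
Best match to the p53 consensus in RefSeq promoter windows. The horizontal axis gives the number of 20 positions that match in the best window and the vertical axis the percentage of 32851 promoters; names mark the best promoter of each of 8 genes, with the 2 genes that rose in red. Cdkn1a and Ccng1 stand at 19, far to the right of most promoters, and Eda2r and Phlda3 at 14 and 15, among most promoters.

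The libraries held 17844125 and 21597187 counted reads with Trps1 siRNA and 20116799 and 25852898 with Negative siRNA. Levels are given as CPM, counts per library total after scaling for composition. The targeted gene, Trps1, had 23.5 and 30.1 CPM in the Trps1 siRNA samples, against 38.1 and 42.2 CPM in the Negative siRNA samples. Its mRNA was thus at 67.1% of the control level (log2 fold change -0.58 ± 0.10 SE, edgeR adjusted p = 0.000351), and the reduction was larger in sample 1 than in sample 2 of Trps1 siRNA. Of 7 Leydig markers, 5 rose, and their summed level was 5893 and 6339 CPM with Trps1 siRNA, against 3957 and 4241 CPM with Negative siRNA. Of 12 macrophage markers, 8 fell, none rose and all 12 had both Trps1 siRNA samples below both controls, with sums of 2605 and 2051 CPM with Trps1 siRNA, against 3081 and 2997 CPM with Negative siRNA. Over all genes tested 5.24% were called higher and 6% lower, and 26.1% had both Trps1 siRNA samples below both controls. The part of these shifts in the values below was not tested, and in bulk RNA fewer cells of a type and less RNA per cell cannot be told apart. Sertoli, germ cell, endothelial and smooth muscle lists each summed to between 1.21 and 35.6 CPM in the 4 samples, and the germ cell gene Tnp1 was at 0 reads in each. Of their genes 1 was called, the smooth muscle actin Acta2, which fell to 0.620 of the control.

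With Trps1 lowered, 2 of the 10 genes rose, Eda2r and Phlda3, none fell, and 8, among them Trp53, Mdm2 and Cdkn1a, did not pass the test. A call is a Benjamini-Hochberg adjusted p under 0.05 in edgeR's quasi-likelihood test over all 14701 genes tested, of which 11.2% were called, 5.24% higher and 6% lower. The fitted log2 fold changes of the 10 genes ran from -0.039 to 0.815 with a median of 0.091, and 9 were positive. Of these 9, Cdkn1a, Gdf15 and Trp53inp1 changed sign in at least 1 fit with 1 sample left out. Over all 14701 genes tested 7411 were positive and the median was 0.002. Both Trps1 siRNA samples lay above both Negative siRNA samples for 5 of the 10 genes, as they did for 26% of all genes tested. Without sample 2 of Trps1 siRNA neither gene was called, and without sample 1 of Negative siRNA only Eda2r was. DESeq2 and voom also called 0 of the 10 lower, and edgeR gave 0 of them a negative change with an unadjusted p under 0.05. The authors' deposited table of 780 changed genes lists 0 of the 10.

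**Figure D2:**
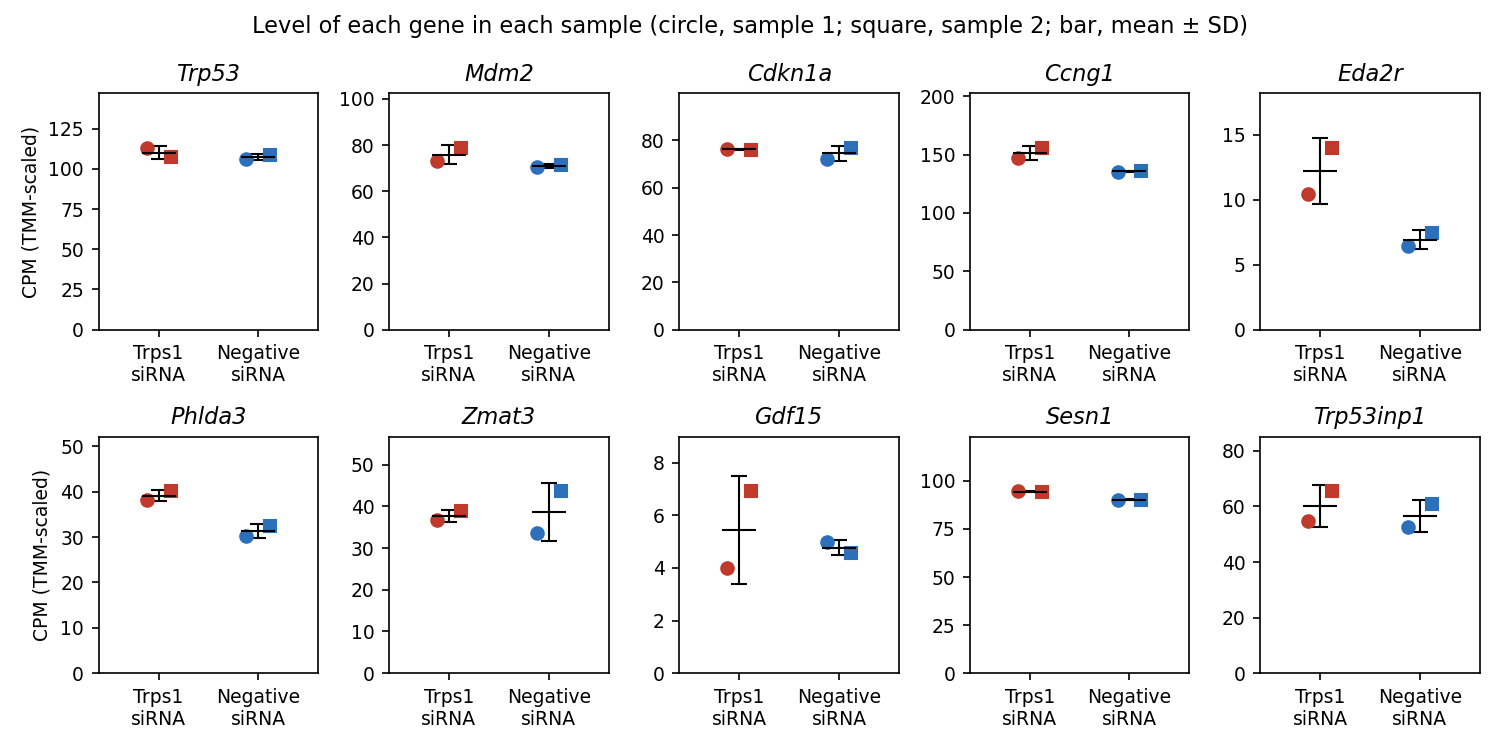
Level of each of the 10 genes in each sample. The vertical axes give CPM and start at 0; red is Trps1 siRNA, blue Negative siRNA, circles are sample 1, squares sample 2, and bars the mean ± SD (n = 2 per group). The groups do not overlap for Eda2r, Phlda3, Ccng1, Mdm2 and Sesn1, while they overlap for Trp53, Cdkn1a, Zmat3, Gdf15 and Trp53inp1.

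The transcription factor itself comes first. Trp53 (ENSMUSG00000059552, protein coding, chromosome 11, 69580359 to 69591873, plus strand) had 113.0 and 107.4 CPM with Trps1 siRNA, against 106.0 and 108.5 CPM with Negative siRNA. The groups overlapped, with means of 110.2 ± 3.96 CPM with Trps1 siRNA and 107.2 ± 1.79 CPM with Negative siRNA (SD, n = 2 each). The means differed by less than the SD of Trps1 siRNA, though by more than that of Negative siRNA. The log2 fold change was 0.039, with a 95% interval of -0.080 to 0.158, that is, 0.946-fold to 1.12-fold.

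Mdm2 (ENSMUSG00000020184, chromosome 10, 117688875 to 117710758, minus strand), the ubiquitin ligase that p53 induces and that in turn removes p53, had 73.0 and 78.7 CPM with Trps1 siRNA, against 70.3 and 71.4 CPM with Negative siRNA. Both Trps1 siRNA samples were above both controls, by a log2 fold change of 0.10 ± 0.07 (SE) that did not pass the test (edgeR adjusted p = 0.398), with a 95% interval of -0.038 to 0.236. Ccng1 (ENSMUSG00000020326, chromosome 11, 40748552 to 40755311, minus strand) encodes cyclin G1, which brings a phosphatase to Mdm2 and is another arm of the feedback. It had 147.0 and 155.7 CPM with Trps1 siRNA, against 135.3 and 135.9 CPM with Negative siRNA. The groups did not overlap and the log2 fold change was 0.16 ± 0.06 (SE), with an edgeR p of 0.00919 before adjustment and 0.0697 after it, just short of the threshold.

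Cdkn1a (ENSMUSG00000023067, chromosome 17, 29090976 to 29100727, plus strand) encodes the inhibitor of cyclin-dependent kinases through which p53 arrests the cell cycle, and its upstream promoter holds the 19-position match shown above. It had 76.3 and 76.0 CPM with Trps1 siRNA, against 72.2 and 76.8 CPM with Negative siRNA. The control samples lay on either side of both Trps1 siRNA samples, and the log2 fold change was 0.031 with a 95% interval of -0.104 to 0.166. Cdkn1a shares 273 exon bases with an annotated antisense transcript. Whether reads were counted by strand is not stated, so reads in those bases may have been given to either transcript or to neither.

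Eda2r (ENSMUSG00000034457, chromosome X, 97333840 to 97377216, minus strand) showed the largest change of the 10. It encodes a receptor of the tumour necrosis factor receptor family for a form of ectodysplasin. It had 186 and 304 reads with Trps1 siRNA and 129 and 191 reads with Negative siRNA. Scaled to library size this was 10.4 and 14.0 CPM with Trps1 siRNA, against 6.42 and 7.46 CPM with Negative siRNA. Both Trps1 siRNA samples were above both controls. Sample 2 was the higher in each group, and Trps1 was lowered less in sample 2 of Trps1 siRNA than in sample 1. A link between Eda2r and the degree of Trps1 lowering was not tested. Eda2r rose 1.76-fold (log2 fold change 0.82 ± 0.16 SE, edgeR adjusted p = 0.000955), with a 95% interval of 1.40-fold to 2.21-fold. Without sample 2 of Trps1 siRNA the log2 fold change was 0.577 and did not pass the test (edgeR adjusted p = 0.0833).

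Phlda3 (ENSMUSG00000041801, chromosome 1, 135766119 to 135769136, plus strand) encodes a small pleckstrin homology domain protein that competes with the kinase Akt for membrane lipids and so restrains Akt. It had 38.3 and 40.0 CPM with Trps1 siRNA, against 30.3 and 32.4 CPM with Negative siRNA. The samples of a group lay close together and the groups did not overlap. Phlda3 rose 1.25-fold (log2 fold change 0.32 ± 0.08 SE, edgeR adjusted p = 0.0121). The call was lost with DESeq2 (adjusted p = 0.0588). It was also lost when sample 2 of Trps1 siRNA (edgeR adjusted p = 0.113) or sample 1 of Negative siRNA (edgeR adjusted p = 0.117) was left out, with log2 fold changes of 0.272 to 0.320.

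Zmat3 (ENSMUSG00000027663, chromosome 3, 32334792 to 32366014, minus strand), a zinc finger protein that binds RNA and affects splicing, was the member with a negative log2 fold change, -0.039 ± 0.099 (SE). It had 36.6 and 38.8 CPM with Trps1 siRNA, against 33.7 and 43.6 CPM with Negative siRNA, so that the controls enclosed the Trps1 siRNA samples. Trp53inp1 (ENSMUSG00000028211, chromosome 4, 11156431 to 11174379, plus strand), a nuclear protein of stress and autophagy that supports p53 phosphorylation, had 54.7 and 65.4 CPM with Trps1 siRNA, against 52.6 and 60.8 CPM with Negative siRNA. In both groups sample 2 was the higher, and the gap between samples of a group exceeded that between the means of 60.02 ± 7.57 CPM with Trps1 siRNA and 56.7 ± 5.77 CPM with Negative siRNA (SD, n = 2 each).

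Sesn1 (ENSMUSG00000038332, chromosome 10, 41809935 to 41908424, plus strand) encodes a sestrin, a stress protein that restrains the growth kinase mTOR. It had 94.5 and 94.4 CPM with Trps1 siRNA, against 90.3 and 89.9 CPM with Negative siRNA. Samples of a group nearly coincided and the groups did not overlap, yet the difference was small, a log2 fold change of 0.068 with a 95% interval of -0.055 to 0.191 (edgeR adjusted p = 0.545). Gdf15 (ENSMUSG00000038508, chromosome 8, 70629393 to 70632456, minus strand), a secreted stress cytokine that ATF4 as well as p53 induces, had the fewest reads, with 71 and 150 in Trps1 siRNA samples and 100 and 117 in Negative siRNA samples. These were 3.98 and 6.90 CPM with Trps1 siRNA, against 4.97 and 4.57 CPM with Negative siRNA. The Trps1 siRNA samples lay one below and one above both controls, and the 95% interval of the log2 fold change, -0.242 to 0.663, was the widest of the 10.

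**Figure D3:**
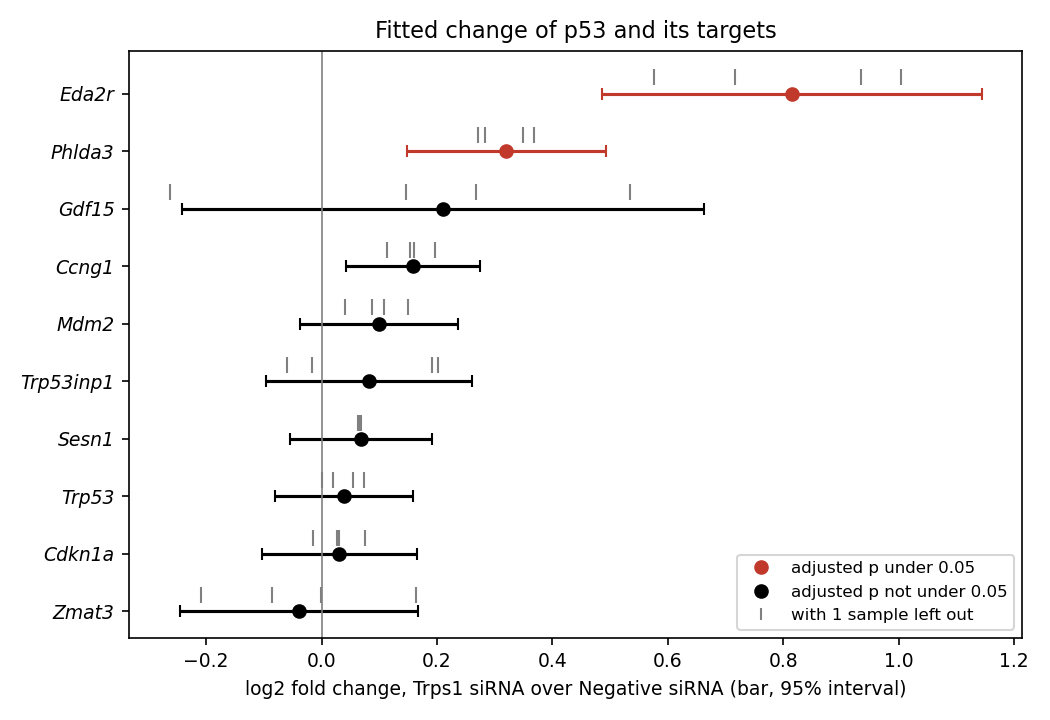
Fitted log2 fold change of each of the 10 genes, Trps1 siRNA over Negative siRNA. Points are the fit to all 4 samples, bars its 95% interval, red an adjusted p under 0.05, and grey ticks the fits with 1 sample left out. The intervals and ticks of Eda2r, Phlda3 and Ccng1 lie above 0 throughout, although the adjusted p of Ccng1 was not under 0.05. The ticks of Mdm2, Sesn1 and Trp53 also lie above 0, while their intervals cross it. The ticks of Gdf15, Trp53inp1, Cdkn1a and Zmat3 fall on both sides of 0.

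On a per-length scale (RPKM, CPM per kilobase of annotated exon) the 10 genes covered a wide range of levels. With Trps1 siRNA, Ccng1 was the most abundant at 41.8 and 44.3 RPKM, followed by Trp53 at 27.9 and 26.6, Phlda3 at 24.5 and 25.7, Sesn1 at 23.7 and 23.7, Cdkn1a at 21.5 and 21.4, and Mdm2 at 14.4 and 15.5 RPKM. Trp53inp1 had 8.44 and 10.1 RPKM with Trps1 siRNA, Zmat3 3.204 and 3.39, Gdf15 2.15 and 3.73, and Eda2r 1.77 and 2.37 RPKM. With Negative siRNA the order differed in the place of Phlda3, which at 19.4 and 20.8 RPKM overlapped Cdkn1a at 20.3 and 21.6 RPKM and lay below Sesn1 at 22.7 and 22.6 RPKM. Neighbours with overlapping samples were also Zmat3 and Gdf15, and Gdf15 and Eda2r, with Trps1 siRNA. The gene that rose most was therefore the least abundant of the 10, at the percentile of 23.8 among tested genes by its level with Negative siRNA, whereas Ccng1 was at 90.1.

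Among genes outside the lists, those whose log2 CPM over the 4 samples lay nearest to that of Eda2r, by Euclidean distance from the Negative siRNA mean, were Ppara, Itgb8 and Serpina6, at distances of 0.0572, 0.161 and 0.164. Ppara, a nuclear receptor for fatty acids, had 13.3 and 18.0 CPM with Trps1 siRNA, against 8.46 and 9.30 CPM with Negative siRNA. With 4 samples such likeness is a description of these libraries.

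The wider pathway was read in 59 other genes listed as p53 targets, of which 56 were tested. The lists were chosen with earlier results of these data known, so the shares below describe them and are not independent support. Ppm1d, which p53 also induces and which fell, was listed with the regulators described below and is not in these counts. Among the 56 targets 8 rose (14.3%) and 1 fell (1.79%), with 47 not called, beside 5.24% and 6% of all genes. The median log2 fold change was 0.109 beside 0.002. Without sample 2 of Trps1 siRNA or without sample 1 of Negative siRNA 5 rose. The authors' deposited table lists 7 of these targets, all higher with Trps1 siRNA: Fdxr, Ei24, Ddit4, Ephx1, Fbxw7, Slc19a2 and Trp53i11. Of the 18 tested targets in metabolism, autophagy and redox control 5 rose and 1 fell, of the 15 in apoptosis 2 rose, of the 14 in cell cycle arrest 1 rose, and of the 9 in DNA repair 0 were called by edgeR, by DESeq2 or by voom. Before adjustment 2 of these 9 had a p under 0.05, as had 23.9% of all genes and 3 of the 10 genes described above.

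The metabolic target that rose most was Fdxr, the ferredoxin reductase that p53 induces and that also feeds electrons to the steroid-making enzymes of mitochondria. Fdxr had 720 and 734 CPM with Trps1 siRNA, against 449 and 464 CPM with Negative siRNA, a 1.59-fold rise (edgeR adjusted p = 1.67e-08). Of the 7 Leydig markers given above, the 5 called also rose, and Star and Insl3, with log2 fold changes of -0.092 and 0.018, were not called. Slc19a2, a thiamine transporter, rose 1.26-fold, and Ddit4, an inhibitor of mTOR signalling, 1.20-fold. Ephx1, an epoxide hydrolase, rose 1.17-fold to a mean of 1314 CPM with Trps1 siRNA, against 1122 CPM with Negative siRNA. When sample 1 of Negative siRNA was omitted, the calls of Ddit4 (edgeR adjusted p = 0.096) and Ephx1 (edgeR adjusted p = 0.171) were lost. Tigar, which lowers glycolytic flux, rose 1.23-fold, a call that each fit with 1 sample left out lost. Dcxr, a carbonyl reductase, fell to 0.774 of the control, a call lost with DESeq2 and in 3 of the 4 fits with 1 sample left out. Gpx1 and Trp53inp2, the most abundant of those not called, had log2 fold changes of -0.11 and 0.12.

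Among apoptosis targets the 2 that rose were Ei24, a membrane protein of the endoplasmic reticulum involved in autophagy, and Trp53i11. Ei24 had 168 and 162 CPM with Trps1 siRNA, against 123 and 126 CPM with Negative siRNA, a 1.32-fold rise (edgeR adjusted p = 1.33e-05), and it shares exon bases with an antisense gene. Trp53i11 rose 1.41-fold, and its call was lost without sample 2 of Trps1 siRNA (edgeR adjusted p = 0.0578). The direct mediators of p53-driven death did not pass the test. Bax had 38.0 and 35.1 CPM with Trps1 siRNA, against 39.8 and 41.4 CPM with Negative siRNA, and Bbc3, which encodes PUMA, had 9.86 and 9.39 CPM with Trps1 siRNA, against 9.004 and 7.70 CPM with Negative siRNA. In the arrest list Fbxw7, the substrate receptor of a ubiquitin ligase for cyclin E and Myc, rose 1.47-fold, to 24.5 and 29.3 CPM with Trps1 siRNA, against 18.5 and 18.3 CPM with Negative siRNA, and its call was lost without sample 2 of Trps1 siRNA (edgeR adjusted p = 0.0632). Tob1 and Ptp4a3 in that list, Rps27l and Aen in the apoptosis list, and Pcna and Polh in the repair list, the most abundant of those not called, had log2 fold changes of -0.15 to 0.16. Bax and Bbc3 were chosen for their roles, outside the rule for named genes.

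**Figure D4:**
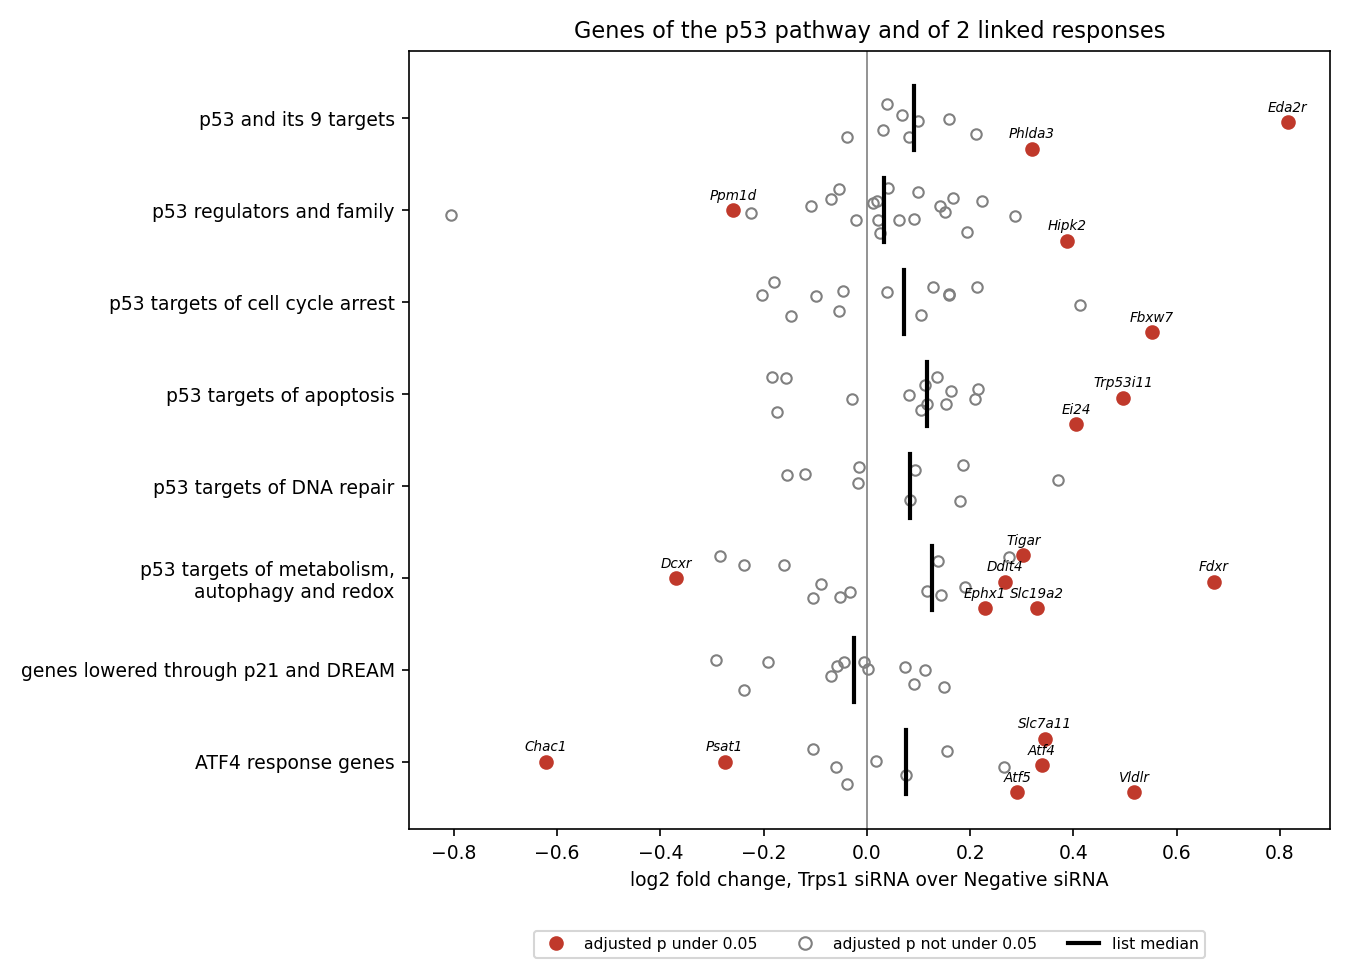
Log2 fold change, Trps1 siRNA over Negative siRNA, of each tested gene in 8 lists. Each point is a gene, red where the adjusted p was under 0.05 and open grey where it was not, and black bars are list medians; vertical scatter within a list carries no value. The medians lie between -0.025 and 0.127, and Eda2r has the largest log2 fold change, 0.815, of the genes shown.

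Of 22 tested regulators and relatives of p53, 1 rose and 1 fell, and 20 were not called. Over all genes tested 5.24% were called higher and 6% lower. Hipk2, a nuclear kinase that phosphorylates p53, had 47.1 and 57.9 CPM with Trps1 siRNA, against 39.3 and 41.1 CPM with Negative siRNA, and rose 1.31-fold (edgeR adjusted p = 0.0041). Ppm1d, the phosphatase that p53 induces and that shuts off p53 signalling, fell to 0.836 of the control, with 52.3 and 50.01 CPM with Trps1 siRNA, against 62.7 and 59.7 CPM with Negative siRNA (edgeR adjusted p = 0.0203). Both calls were lost without sample 2 of Trps1 siRNA, and that of Ppm1d also when sample 1 of Negative siRNA was omitted (edgeR adjusted p = 0.145) and with DESeq2 (adjusted p = 0.0751). Pml and Usp7 had log2 fold changes of -0.11 and 0.15 and did not pass. The p53 relatives Trp63 and Trp73 had under 1 CPM in each library and were not tested.

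Through Cdkn1a, p53 lowers genes of mitosis by way of the DREAM repressor complex. None of 12 such genes was called (0 with edgeR, 0 with DESeq2 and 0 with voom). Before adjustment edgeR gave 2 of the 12, Plk1 and Ccnb1, a p under 0.05, both lower with Trps1 siRNA. Over all genes tested 23.9% had such a p, in either direction. Plk1 had a log2 fold change of -0.29 (edgeR adjusted p = 0.0792) and Ccnb1 one of -0.24 (edgeR adjusted p = 0.149). The median log2 fold change of the 12 was -0.025. Cdc20 and Cdk1, the most abundant, had log2 fold changes of -0.07 and -0.06. Of 13 genes of the ATF4 stress response, which shares Gdf15 with p53, 4 rose and 2 fell, beside 5.24% and 6% of all genes. Atf4 itself had 267 and 262 CPM with Trps1 siRNA, against 219 and 199 CPM with Negative siRNA, and rose 1.26-fold (edgeR adjusted p = 0.000369). Vldlr, a lipoprotein receptor, rose 1.43-fold, Atf5 1.22-fold and the cystine transporter Slc7a11 1.27-fold. Psat1, of serine synthesis, and Chac1, which degrades glutathione, fell to 0.826 and 0.650 of the control. The calls of Slc7a11, Atf5, Psat1 and Chac1 did not survive the omission of every sample in turn. Shmt2 and Nupr1 had log2 fold changes of 0.07 and 0.16 and did not pass the test.

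Among tested genes with a promoter entry, a match of at least 17 positions was held by 7.03% of the 583 called higher, 6.92% of the 679 called lower and 6.60% of the 9402 not called. Of the 47 other p53 targets with a promoter entry 10 held one (21.3%), and of these 10 Tigar was the one called higher. The shares are descriptions, with no test.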

How the data were processed

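The authors deposited raw counts per gene, made with HISAT2 and featureCounts on GRCm38 (mm10) per the submitters' processing notes. Not given in the sources used here: versions, filters, strand setting. The authors' deposited table of 780 genes holds mean scaled signal per group, log2 fold changes and p-values from a test that is not stated. Groups came from sample titles. Counts were fitted with edgeR 4.0.16 (R 4.3.3): TMM, filterByExpr with a minimum count of 10, robust glmQLFit, glmQLFTest, group only, 2 residual degrees of freedom, Benjamini-Hochberg adjustment over 14701 genes, threshold 0.05. Standard errors are the log2 fold change over the root of F. The 95% intervals use the total degrees of freedom of the fit, 25.1 for Trp53, most of them borrowed from other genes. Tests on simulated counts for 14701 genes, in 1 run with a common dispersion for all genes, called 62% of genes with a log2 rise of 0.5. Smaller changes were not simulated. Both replicate pairs differed by more than sampling noise (mean chi-square per gene 4.61 for Trps1 siRNA and 7.60 for Negative siRNA). Alternatives were RLE factors, library totals, no filter, DESeq2 1.42.0, a minimum mean of 5 CPM, voom of limma 3.58.1, no robust estimation, a replicate block and each sample left out. The rule for named genes took the 10 genes, Trps1, called genes and the 2 most abundant uncalled genes of each pathway list, and the 3 nearest patterns. The genes and lists were chosen with earlier results of these data known.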

Additional observations from a re-analysis of the deposited data

How the results depend on the processing

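The count of 1652 changed genes became 991 with DESeq2 and lay between 871 (sample 2 of Trps1 siRNA omitted) and 1675 with 1 sample left out. Of the 10 genes, the 2 called higher became 1 with DESeq2 and 0 to 3 with a sample left out, and none was called lower in any fit. Of the other p53 targets, the 8 called higher became 5 to 9 with a sample left out, and the 1 called lower became 0 with DESeq2 and 0 to 1 with a sample left out. RLE factors, library totals, either filter, voom and non-robust estimation kept these counts within 1.5 times. Log2 fold changes changed sign, when 1 sample was left out, in 6 named genes that were not called. They lay between -0.014 and 0.075 for Cdkn1a, -0.209 and 0.163 for Zmat3, -0.263 and 0.534 for Gdf15, -0.059 and 0.201 for Trp53inp1, -0.082 and 0.044 for Polh and -0.149 and 0.006 for Cdc20. The cause was not tested.

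Nothing in the labels pairs equal replicate numbers, and deviations of same-numbered samples correlated at 0.069. With the replicate number as a block, 2285 genes were called, 3 of the 10 genes higher with Ccng1 added (edgeR adjusted p = 0.0272), and 10 other targets higher and 1 lower. With 71 to 304 reads per library, Gdf15 and Eda2r are limited by depth more than the other 8.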
